A study of Mus musculus with 17 samples.

Results

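The Reg (regenerating islet-derived) family was examined in bulk RNA-seq of isolated pancreatic islets from 17 male mice. The mouse family was taken as 7 genes chosen by symbol, *Reg1*, *Reg2*, *Reg3a*, *Reg3b*, *Reg3d*, *Reg3g* and *Reg4*, out of 78239 gene identifiers in one table of expected counts and 73212 in a second. The filter on low counts left 6 of the 7 for testing in each table, and *Reg4* was left out in both. The first table held wildtype mice (labelled Pax4 WT) and mice homozygous for the *Pax4* R192H knock-in allele (labelled Pax4 HH), littermates on a C57BL6/N background. On a standard chow diet (SCD) they were 12 weeks old, and after 4 weeks on a high-fat diet (HFD) they were 16 weeks old, with 3 mice in each of the 4 groups. The second table held 2 control and 3 *Pax4* βiKO mice (labelled Pax4-BiKO), which were on an HFD for 8 weeks and studied at 20 weeks of age. The latter 2 groups shared floxed *Pax4* alleles on both chromosomes and tamoxifen treatment, and *Pax4* βiKO mice also carried *Pdx1-Cre*ERT2, in which the *Pdx1* promoter drives the recombinase, whereas controls did not. The presence of Cre and the loss of *Pax4* therefore cannot be told apart, nor can diet and age between the SCD and HFD groups.

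Reg proteins are small secreted proteins built around a C-type lectin-like domain. They are made by acinar cells of the pancreas and by epithelial cells of the gut, and their name comes from studies of regenerating islets. *Reg1* encodes a protein of pancreatic juice also called lithostathine or pancreatic stone protein. *Reg3b* encodes the pancreatitis-associated protein, which is induced in the inflamed pancreas, and *Reg3g* encodes an antibacterial lectin of the intestinal lining. Transcription of several members is known to respond to cytokines that signal through gp130 (encoded by *Il6st*) and Stat3, and the glycosyltransferase-like protein Extl3 has been described as a Reg receptor.

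In the GENCODE M21 annotation of GRCm38 (the assembly of mm10), *Reg3b*, *Reg3d*, *Reg3a*, *Reg2*, *Reg1* and *Reg3g* follow each other in that order on chromosome 6, between 78370657 and 78468872, within 98216 bases. *Reg3d* and *Reg3g* are on the minus strand and the other 4 on the plus strand. *Reg4* lies apart on chromosome 3, from 98222156 to 98236748 on the plus strand.

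**Figure D1:**
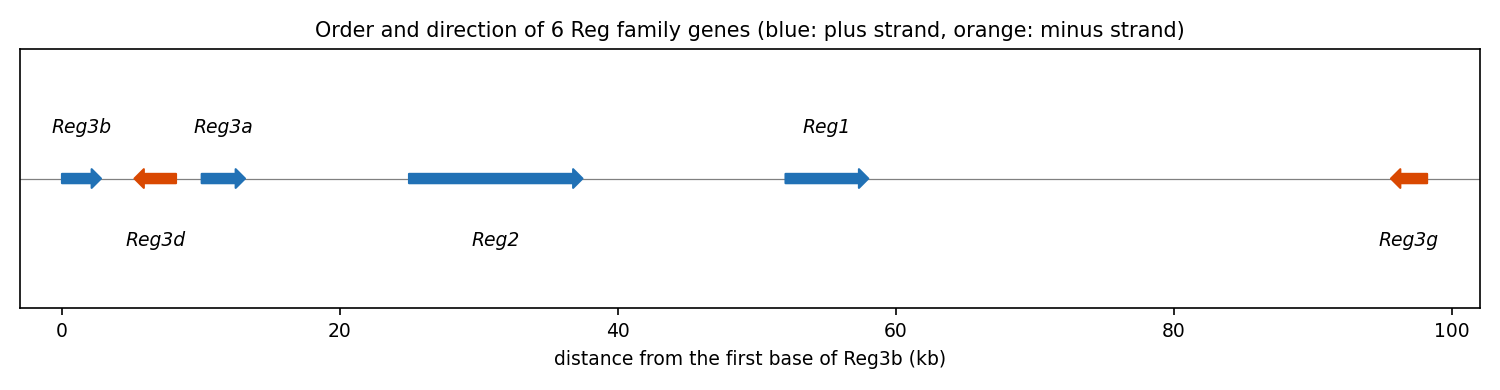
Order and transcription direction of the 6 clustered Reg genes along the chromosome, drawn to scale as distance in kb from the first base of *Reg3b*. Arrows span each annotated gene, with *Reg3d* and *Reg3g* pointing against the other 4.

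The coding sequences were most alike between *Reg1* and *Reg2*, at 78.8% identical bases, followed by *Reg3b* and *Reg3g* at 76.0%. *Reg4* matched the other members at 49.5% to 53.9%. Reads of close copies can be divided wrongly between genes. Among the longest transcripts no stretch of 50 bases was shared between any members, and *Reg3b* and *Reg3g* shared 11 windows of 25 bases, 1.45% and 1.47% of those in each transcript. How the authors' counting divided such reads was not tested.

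The promoters are shown for *Reg2* and *Reg3b*, the 2 members whose levels followed each other most closely from mouse to mouse, and for *Reg1* and *Reg3d*, the 2 whose levels were steadiest. Each line gives the 250 bases before the RefSeq transcription start on GRCm38.p6, 5′ to 3′ along the gene. GENCODE M21 places the first base of *Reg2* at 78395623 and of *Reg1* at 78422711. The windows of these 2 genes therefore lie inside the GENCODE gene spans, and the *Reg3b* window overlaps its gene from 78370657. Which start is used in islets was not tested. Capitals mark matches to a TATA box (TATAAA), a STAT element (TTCNNNGAA) or a C/EBP-type motif (TTGCNNAA or its reverse complement).
*Reg2* (chr6:78404905-78405154, plus strand): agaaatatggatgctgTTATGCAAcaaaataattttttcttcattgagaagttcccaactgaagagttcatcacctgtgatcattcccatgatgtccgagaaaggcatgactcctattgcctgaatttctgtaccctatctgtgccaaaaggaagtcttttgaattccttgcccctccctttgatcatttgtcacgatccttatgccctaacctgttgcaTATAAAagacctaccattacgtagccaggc
*Reg3b* (chr6:78370635-78370884, plus strand): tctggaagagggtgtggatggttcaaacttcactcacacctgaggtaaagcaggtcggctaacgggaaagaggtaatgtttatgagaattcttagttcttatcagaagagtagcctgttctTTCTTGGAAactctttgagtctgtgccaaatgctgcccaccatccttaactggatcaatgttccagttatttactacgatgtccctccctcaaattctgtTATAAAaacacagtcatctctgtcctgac
*Reg1* (chr6:78425733-78425982, plus strand): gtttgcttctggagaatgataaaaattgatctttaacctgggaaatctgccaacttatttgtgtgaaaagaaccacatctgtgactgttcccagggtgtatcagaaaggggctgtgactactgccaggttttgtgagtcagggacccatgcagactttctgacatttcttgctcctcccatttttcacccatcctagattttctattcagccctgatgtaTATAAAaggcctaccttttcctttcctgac
*Reg3d* (chr6:78378866-78379115, minus strand): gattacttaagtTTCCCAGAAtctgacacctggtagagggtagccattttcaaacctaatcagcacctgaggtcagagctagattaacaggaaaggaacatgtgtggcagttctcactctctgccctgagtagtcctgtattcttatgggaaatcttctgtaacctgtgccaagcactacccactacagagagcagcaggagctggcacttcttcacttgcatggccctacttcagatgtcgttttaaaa

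A TATA box was present on the gene strand of *Reg1*, *Reg2*, *Reg3b* and *Reg3g*, starting 27 to 30 bases before the start site, and in none of the windows of *Reg3a*, *Reg3d* and *Reg4*. Of 32851 RefSeq promoters of the same 300-base length (250 before and 50 after the start), 8.32% held this motif. The STAT element, searched on both strands, was found in *Reg3b* at position -129 and in *Reg3d* at position -238, against 8.30% of all promoters. The C/EBP-type motif was found in *Reg2* and *Reg3a* and in 10.8% of all promoters. An E-box (CANNTG, both strands) was present in all 7 windows and in 72.3% of all promoters. The full windows of *Reg3b* and *Reg3g* were 68.1% identical in alignment and shared a run of 29 bases, and those of *Reg1* and *Reg2* were 55.3% identical. No match to one motif overlapped a match to another. These matches describe letters in the windows only.

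Each mouse of the first table had 24268150 to 42679673 counts in total, and each mouse of the second 28618787 to 31887499. A pair of 2 genes held 36.2% to 53.3% of the counts of a mouse in the first table, against 8.68% to 11.1% in the second. Values are CPM (counts scaled to the size of the library) after TMM normalization within each table, so levels were not compared between the tables. A total of 3 counts corresponded to 0.0723 to 0.126 CPM. The islet label was checked with 5 β cell genes, *Ins1*, *Ins2*, *Iapp*, *Slc2a2* and *Nkx6-1*, none of which was at 0 in any mouse. Of 36 acinar enzyme genes none was at 0 in any mouse either. Their summed level was 23430 to 149645 CPM in the first table and 27322 to 171824 CPM in the second, so acinar RNA was present in every preparation. In bulk RNA more acinar cells and more transcript per cell cannot be told apart.

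*Reg1* was the most abundant member in all 17 mice when levels were set per kb of transcript. It made up 75.6% to 98.5% of the summed CPM of the family in the first table and 66.9% to 96.9% in the second. On an SCD, *Reg1* measured 240, 147 and 230 CPM in wildtype mice 1, 2 and 3 and 207, 116 and 137 CPM in the *Pax4* R192H mice. On an HFD it measured 119, 334 and 106 CPM in wildtype and 733, 420 and 240 CPM in the *Pax4* R192H mice. The highest SCD-fed mouse and the lowest HFD-fed *Pax4* R192H mouse thus had almost the same level, and HFD-fed wildtype mouse 2 lay above the other 2 wildtype mice of its group by a wide margin.

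The place behind *Reg1* changed hands between mice. Per kb, *Reg2* was second in 11 of the 17 mice and *Reg3d* in 6, and *Reg1* exceeded the second member by 2.02 to 111 times. *Reg3d*, a relative of the islet neogenesis-associated protein of hamsters, measured 3.20, 1.79 and 2.89 CPM in the SCD-fed wildtype mice and 3.86, 1.39 and 0.915 CPM with the *Pax4* R192H allele. On an HFD the values were 1.92, 3.85 and 1.59 CPM in wildtype and 13.2, 5.79 and 3.45 CPM in *Pax4* R192H mice. The last group overlapped with the 2 groups before it and lay above the SCD-fed wildtype mice.

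*Reg2* and the 3 genes *Reg3a*, *Reg3b* and *Reg3g* behaved differently, with 1 or 2 mice per group far above the rest. On an SCD, *Reg2* measured 8.18, 1.66 and 0.844 CPM in wildtype and 37.3, 0.237 and 0.953 CPM in *Pax4* R192H islets. On an HFD it measured 0.240, 14.0 and 0.208 CPM in wildtype and 30.4, 10.7 and 2.99 CPM in *Pax4* R192H islets. The SCD-fed *Pax4* R192H group alone spanned a ratio of 157 between its highest and lowest mouse. *Reg3b* gave the same picture, at 3.06, 0.804 and 0.217 CPM, 19.2, 0.0789 and 0.457 CPM, 0.186, 5.15 and 0.0521 CPM, and 29.0, 6.25 and 1.82 CPM in the same order. The lowest *Reg3b* values, in HFD-fed wildtype mouse 3 and SCD-fed *Pax4* R192H mouse 2, rested on 2 and 3 counts. *Reg3g* reached 4.26 CPM in SCD-fed *Pax4* R192H mouse 1, where it was at 0 in the other 2 mice of the group. *Reg3a* reached 2.21 CPM in that mouse and 4.51 CPM in HFD-fed *Pax4* R192H mouse 1, its highest values of the table. The remaining *Reg3a* values were between 0 and 0.614 CPM.

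The same 5 mice held the 5 highest levels of *Reg2*, *Reg3a*, *Reg3b* and *Reg3g*. They were SCD-fed wildtype mouse 1, SCD-fed *Pax4* R192H mouse 1, HFD-fed wildtype mouse 2 and HFD-fed *Pax4* R192H mice 1 and 2, so that each of the 4 groups contributed. For *Reg1* and *Reg3d*, 4 of the 5 highest mice were among them.

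**Figure D2:**
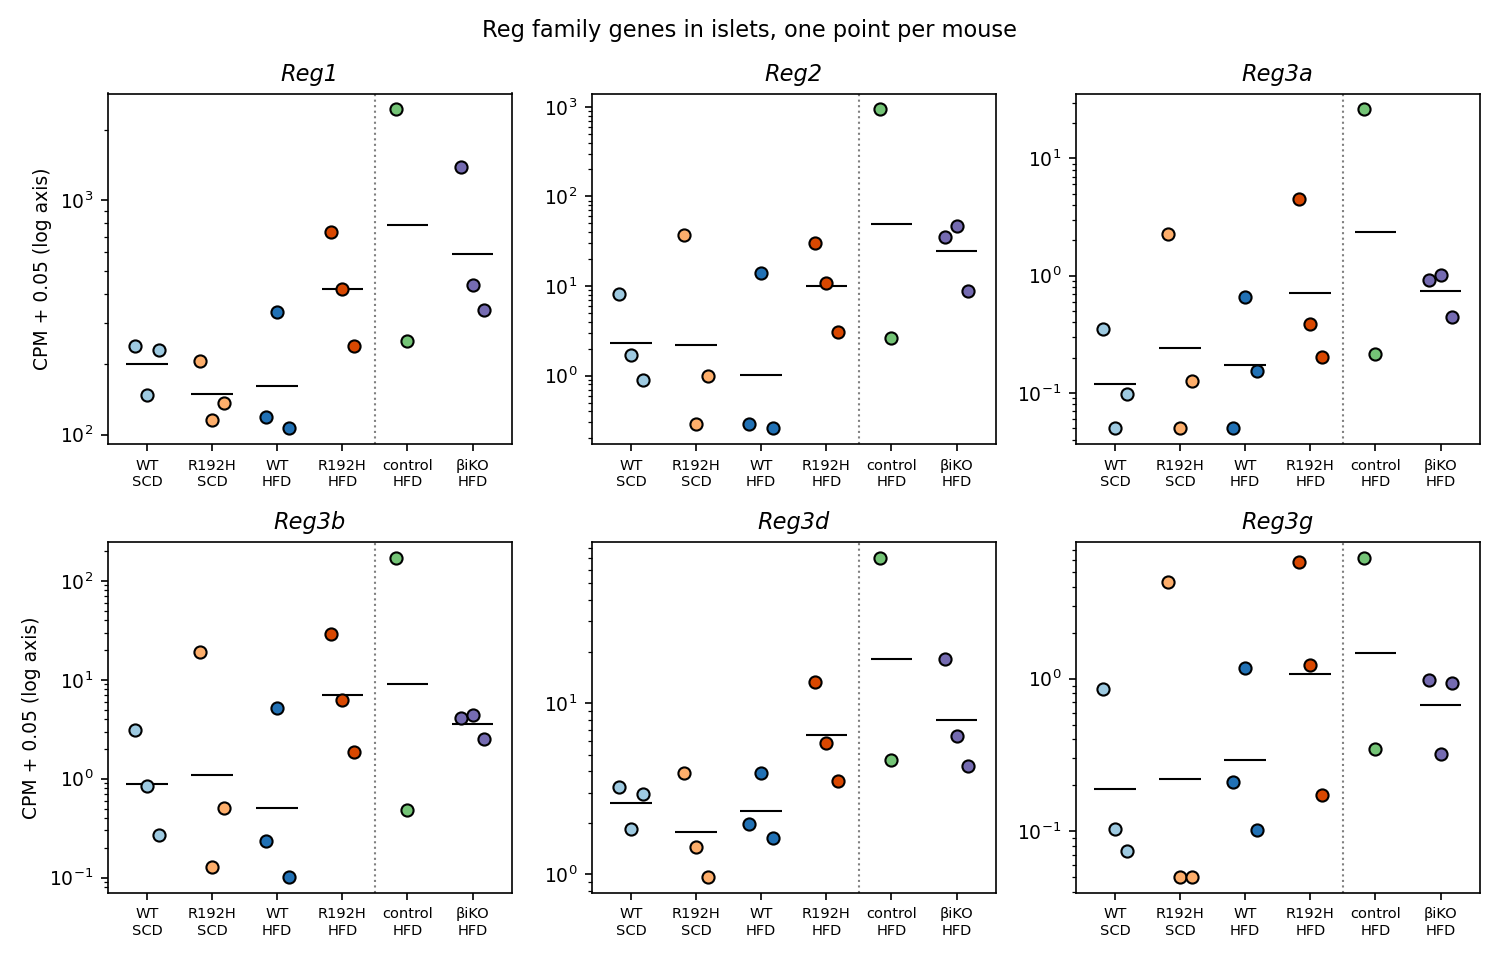
Level of 6 Reg genes in each mouse as CPM + 0.05 on a log axis, by group, with the geometric mean as a bar. The dotted line divides the 2 tables, which were normalized apart. The highest mouse of *Reg2* in SCD-fed *Pax4* R192H islets (37.3 CPM) and in HFD-fed wildtype islets (14.0 CPM) is also the highest of its group for *Reg3a*, *Reg3b* and *Reg3g*.

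*Reg4*, a member best known from enteroendocrine and goblet cells of the gut, had 2 counts in SCD-fed *Pax4* R192H mouse 1, 13 counts in HFD-fed *Pax4* R192H mouse 1 and 1 count in HFD-fed *Pax4* R192H mouse 2. It was at 0 in the other 9 mice of the first table and in all 5 mice of the second. A count of 0 allows a level of up to 0.126 CPM.

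The spread between mice of the same group was large for this family. Pooled over the 4 groups of the first table, the within-group SD of log2 CPM was 2.702 for *Reg2*, 2.698 for *Reg3b*, 2.52 for *Reg3g* and 2.11 for *Reg3a*, against a median of 0.33 over the 19137 tested genes. Only 24 of these genes had a larger SD than *Reg2*, and 67 a larger one than *Reg3a*. These ranks were taken among genes of every abundance. *Reg3a* and *Reg3g* had few counts in most mice and passed the filter through their higher mice, which by itself favours a large SD. The SD of *Reg3d* was 0.81 and that of *Reg1* 0.67, larger than those of 84.7% and 77.9% of tested genes. In the second table *Reg2* had an SD of 3.61 and *Reg3b* of 3.46, and 2 and 5 of 20167 genes exceeded them, with a median of 0.20.

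**Figure D3:**
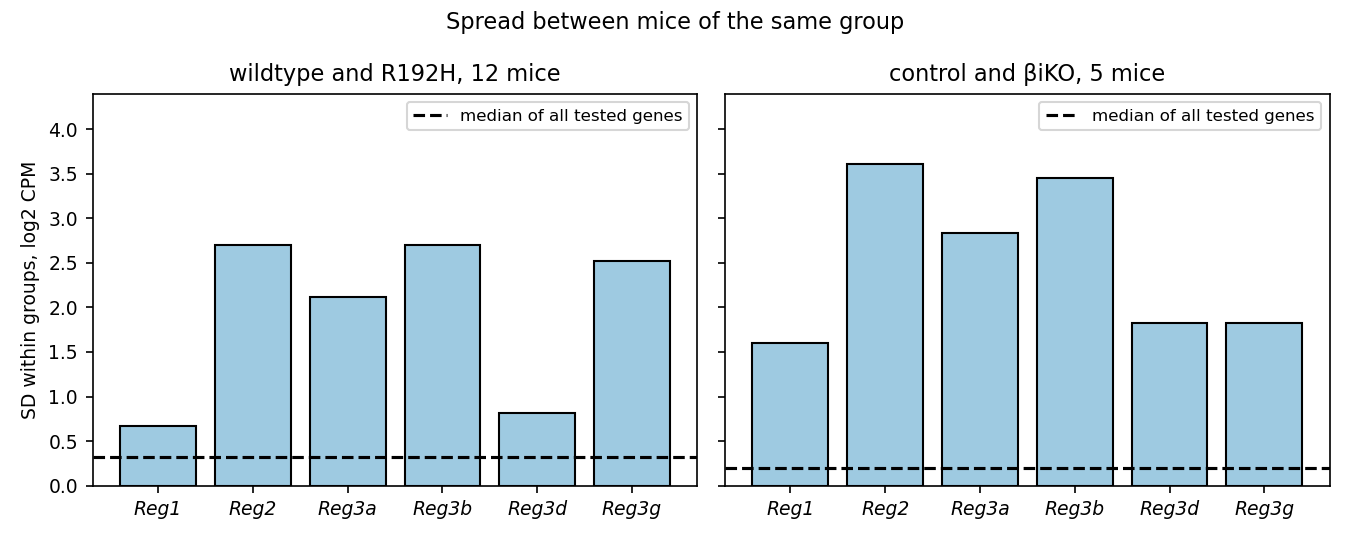
Within-group SD of log2 CPM of 6 Reg genes, pooled over the 4 groups of the first table (left) and the 2 groups of the second (right). The dashed line is the median of all tested genes, 0.33 and 0.20, and every bar lies above it.

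The levels of the members varied together across mice. Over the 12 mice of the first table, Pearson's r of log2 CPM was between 0.766 and 0.985 for the 15 pairs that the 6 tested members form. *Reg2* and *Reg3b* gave the highest r, 0.985 (Spearman's rho 0.986, both permutation p = 1e-05, the smallest that the permutations can give). It was 0.982 without the 2 mice farthest from the median of *Reg2*, and 0.993 and 0.985 within the 6 mice of each diet. The adjusted permutation p over the 15 pairs was 0.00015 for both coefficients. *Reg1* and *Reg3d* gave r = 0.937 and rho = 0.860 (adjusted permutation p = 0.00021 and 0.00156), r = 0.883 without the 2 mice farthest from the median of *Reg1*, and r = 0.861 and 0.980 within SCD-fed and HFD-fed mice. The lowest coefficient belonged to *Reg1* and *Reg3g* (r = 0.766, rho = 0.722, adjusted permutation p = 0.00356 and 0.0105), which fell to r = 0.633 without 2 mice. Over the 15 pairs, r within SCD-fed mice ranged from 0.553 (*Reg1* and *Reg3b*) to 0.993 (*Reg2* and *Reg3b*). Within HFD-fed mice it ranged from 0.867 (*Reg2* and *Reg3a*) to 0.993 (*Reg1* and *Reg3b*). Levels in one library share its composition, and *Reg3a* and *Reg3g* rest on few counts in most mice.

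Counts of one member relative to another in the same library set the 2 patterns apart. Per 1000 *Reg1* counts, *Reg3d* had 6.69 to 18.6 counts in the 12 mice of the first table. *Reg2* had 1.96 to 180 counts per 1000 *Reg1* counts in the same mice, and *Reg3b* 0.489 to 92.5. The lowest *Reg2* ratios were those of HFD-fed wildtype mice 1 and 3 and of SCD-fed *Pax4* R192H mouse 2, and the highest that of SCD-fed *Pax4* R192H mouse 1.

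Outside the family, the tested genes with the most similar pattern to *Reg1* over the 12 mice were *Gjb1* (r = 0.942), *Itih4* (r = 0.910) and *C1rl* (r = 0.899). *Gjb1*, a gap junction gene, was also among the 3 nearest genes of *Reg3a*, *Reg3b* and *Reg3d*. The nearest genes of *Reg2* were *Slirp* (r = 0.870), *Bloc1s2* and *Cdk7*, and *Reg3b* had *Slirp* (r = 0.850) and *Gm9920* beside *Gjb1*. *Reg3a* was nearest to *Itih4* (r = 0.862) and *Muc3*, and *Reg3d* to *Bcl2l14* (r = 0.932), followed by *Gjb1* and *Naa10*. The 3 genes of *Reg3g* were *Gm9920* (r = 0.834), *Inpp5b* and *Acsl5*. All of these were below the coefficient of *Reg2* with *Reg3b*. They are the largest among all tested genes over 12 mice, so their size owes in part to the selection, and no test was run. *Gjb1* ranged from 0.625 to 4.15 CPM and *Slirp* from 10.6 to 18.0 CPM, against 0.208 to 37.3 CPM for *Reg2*. *Itih4* ranged from 0.0789 to 4.97 CPM. *Muc3* measured 19.4 and 10.7 CPM in *Pax4* R192H mouse 1 on an SCD and an HFD, and at most 0.337 CPM in the other mice.

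The comparison of *Pax4* R192H with wildtype islets on an SCD asks whether the allele alters expression without a dietary load. A gene was called where edgeR's adjusted p was below 0.05 and the log2 fold change exceeded 0.5 in either direction. No member was called, and edgeR called 0 of 19137 genes (0%), with 629 genes at an unadjusted p below 0.05 and 19 genes called by DESeq2. The log2 fold change was -0.43 ± 0.44 (SE) for *Reg1* and -0.33 ± 0.56 for *Reg3d*. It was 1.89 ± 1.59 for *Reg2* and 2.33 ± 1.62 for *Reg3b*, differences that rested on *Pax4* R192H mouse 1. The adjusted p was 1 for all 6. Without that mouse they were -2.62 and -2.40. All members overlapped between the groups, as opposed to 7.84% of tested genes that did not.

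On an HFD the comparison of the genotypes again gave no called member, while 2.28% of tested genes were called. *Reg1* had a log2 fold change of 1.32 ± 0.45 (adjusted p = 0.151) and *Reg3d* of 1.62 ± 0.56 (adjusted p = 0.155). *Reg2*, *Reg3a*, *Reg3b* and *Reg3g* had fold changes between 1.63 and 2.84 on the log2 scale, with SEs between 1.57 and 1.73 and adjusted p-values between 0.427 and 0.676. Every tested member overlapped between the genotypes through wildtype mouse 2, *Reg3g* through wildtype mouse 1 as well, and 22.8% of tested genes did not overlap. Without wildtype mouse 2 the value of *Reg1* was 2.04 (adjusted p = 0.0245), and without *Pax4* R192H mouse 1 it was 0.83 (adjusted p = 0.464). Leaving out those 2 mice in turn also gave the lowest and the highest value of the other members, 0.92 and 2.09 for *Reg3d*, 0.52 and 6.01 for *Reg2*, 0.059 and 4.89 for *Reg3a*, 1.20 and 6.66 for *Reg3b* and 0.55 and 4.44 for *Reg3g*, none of them called. DESeq2 called *Reg3d* at 1.61 (adjusted p = 0.04). Over the alternatives that did not leave out a single mouse, the lowest value was 0.057 for *Reg1* and 0.29 for *Reg3d*.

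The clearest difference of the family appeared between diets in *Pax4* R192H islets, where *Reg1* and *Reg3d* rose on an HFD. *Reg1* rose by 1.60 ± 0.45 on the log2 scale (adjusted p = 0.0278), from a mean of 153 ± 47.9 to 464 ± 250 CPM (SD, n = 3), and its 3 HFD-fed mice lay above the 3 SCD-fed ones. *Reg3d* rose by 1.84 ± 0.56 on the log2 scale (adjusted p = 0.0381), although the ranges met, with 3.45 CPM in the lowest HFD-fed and 3.86 CPM in the highest SCD-fed mouse. The other 4 tested members had values between 0.18 and 1.10 (adjusted p between 0.653 and 0.944). The share of 2 of 6 has to be read beside a background of 15.7% of tested genes called and 41.8% without overlap in this comparison. Both calls were lost when SCD-fed mouse 2 or 3 or HFD-fed mouse 1 or 2 was left out. Over the 6 mice left out in turn, *Reg1* then ranged from 1.11 (without HFD-fed mouse 1) to 1.91 and *Reg3d* from 1.15 (without the same mouse) to 2.71 on the log2 scale. In wildtype islets no member was called between the diets, with values from -0.14 (*Reg1*) to 1.04 (*Reg3a*) and adjusted p-values of 0.827 or more, while 0.371% of tested genes were called and 17.9% did not overlap.

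The difference between the 2 diet effects was tested as an interaction. It was 1.74 ± 0.63 for *Reg1* (adjusted p = 0.309) and 1.95 ± 0.78 for *Reg3d* (adjusted p = 0.362), so a different diet effect in the 2 genotypes was not shown for either gene. No member was called, with 0.131% of tested genes called. Leaving out each mouse gave 1.25 to 2.47 for *Reg1* and 1.26 to 2.80 for *Reg3d*, without a call. Over the other alternatives the lowest value was 0.29 for *Reg1* and 0.39 for *Reg3d*.

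**Figure D4:**
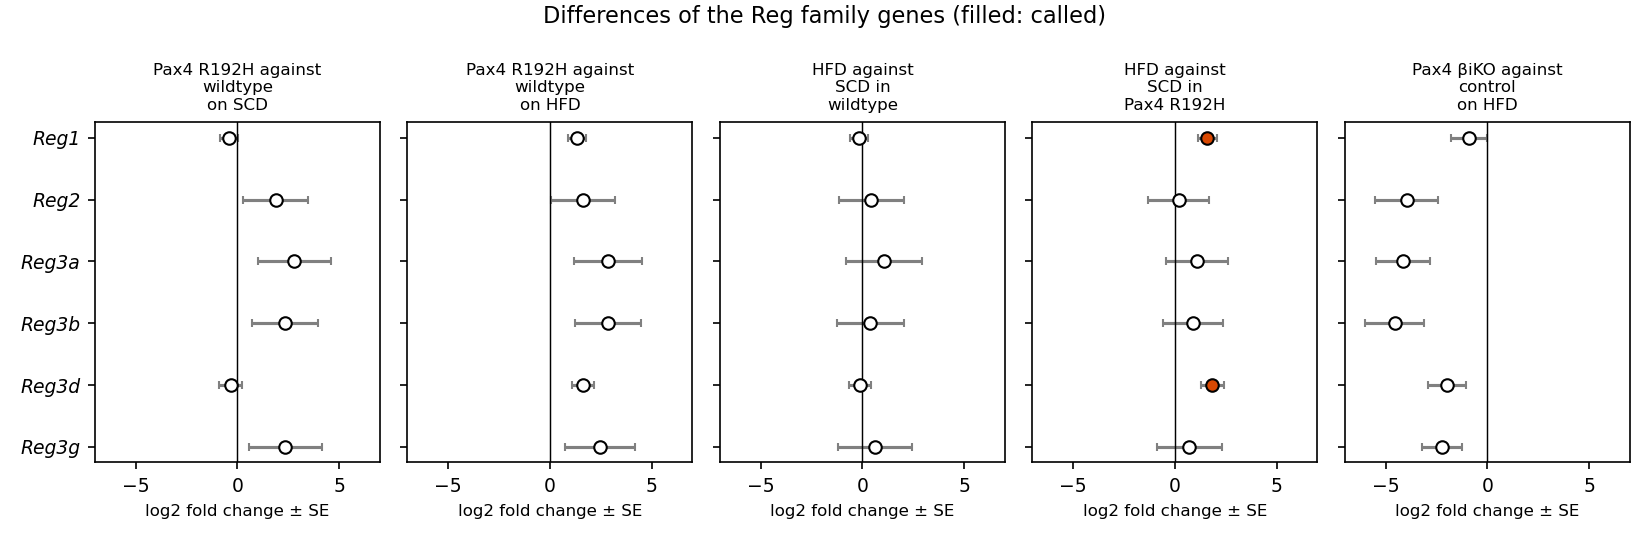
Log2 fold change with SE of 6 Reg genes in 5 comparisons. Filled points are genes called by edgeR (adjusted p below 0.05, log2 fold change above 0.5 in either direction), which holds for *Reg1* (1.60) and *Reg3d* (1.84) between the diets in *Pax4* R192H islets and for no other point.

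Acinar enzyme genes moved with this result. Of the 36 in the list, 33 were higher and 0 lower in HFD-fed than in SCD-fed *Pax4* R192H islets, with a median log2 fold change of 1.74 against -0.06 over all tested genes. The amylase genes *Amy2a2*, *Amy2a3* and *Amy2a4* had identical values in each comparison, so these entries of the list do not count as separate evidence. *Prss1*, *Prss3*, *Try5* and *Try10*, all of the trypsinogen family, rose most, by 4.28, 2.99, 2.94 and 2.54 on the log2 scale. Among 6 acinar transcription factors, *Ptf1a* (2.16) and *Bhlha15* (1.10), which direct acinar identity and secretory capacity, rose as well. Between the genotypes on an HFD 11 of the 36 enzymes were called higher and 0 lower (median 1.50), and in the remaining comparisons none was called. The mean log2 CPM of the list was 7.33 to 7.71 in *Pax4* R192H mice on an SCD, 7.40 to 8.22 and 7.47 to 8.20 in wildtype mice on an SCD and an HFD, and 8.77 to 10.07 in *Pax4* R192H mice on an HFD.

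Set against the summed acinar enzymes of the same library, *Reg1* did not stand apart in the latter group. Per 1000 CPM of the 36 enzymes, *Reg1* measured 4.90, 7.03 and 4.06 CPM in the *Pax4* R192H mice on an HFD and 8.58, 4.28 and 4.45 CPM in those on an SCD. The wildtype mice gave 8.60, 6.29 and 4.87 CPM on an SCD and 4.00, 8.11 and 4.06 CPM on an HFD. All 4 groups overlapped on this scale. *Reg3d* measured 0.0884, 0.0969 and 0.0585 CPM per 1000 with an HFD and 0.160, 0.0516 and 0.0298 CPM with an SCD in *Pax4* R192H mice, which also overlapped. With the mean of the list as a covariate the log2 fold change between the diets was -0.086 for *Reg1* and 0.11 for *Reg3d* (adjusted p = 0.965 and 0.967), but the number of called genes over the whole table also went from 2996 to 56. The cause was not tested.

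**Figure D5:**
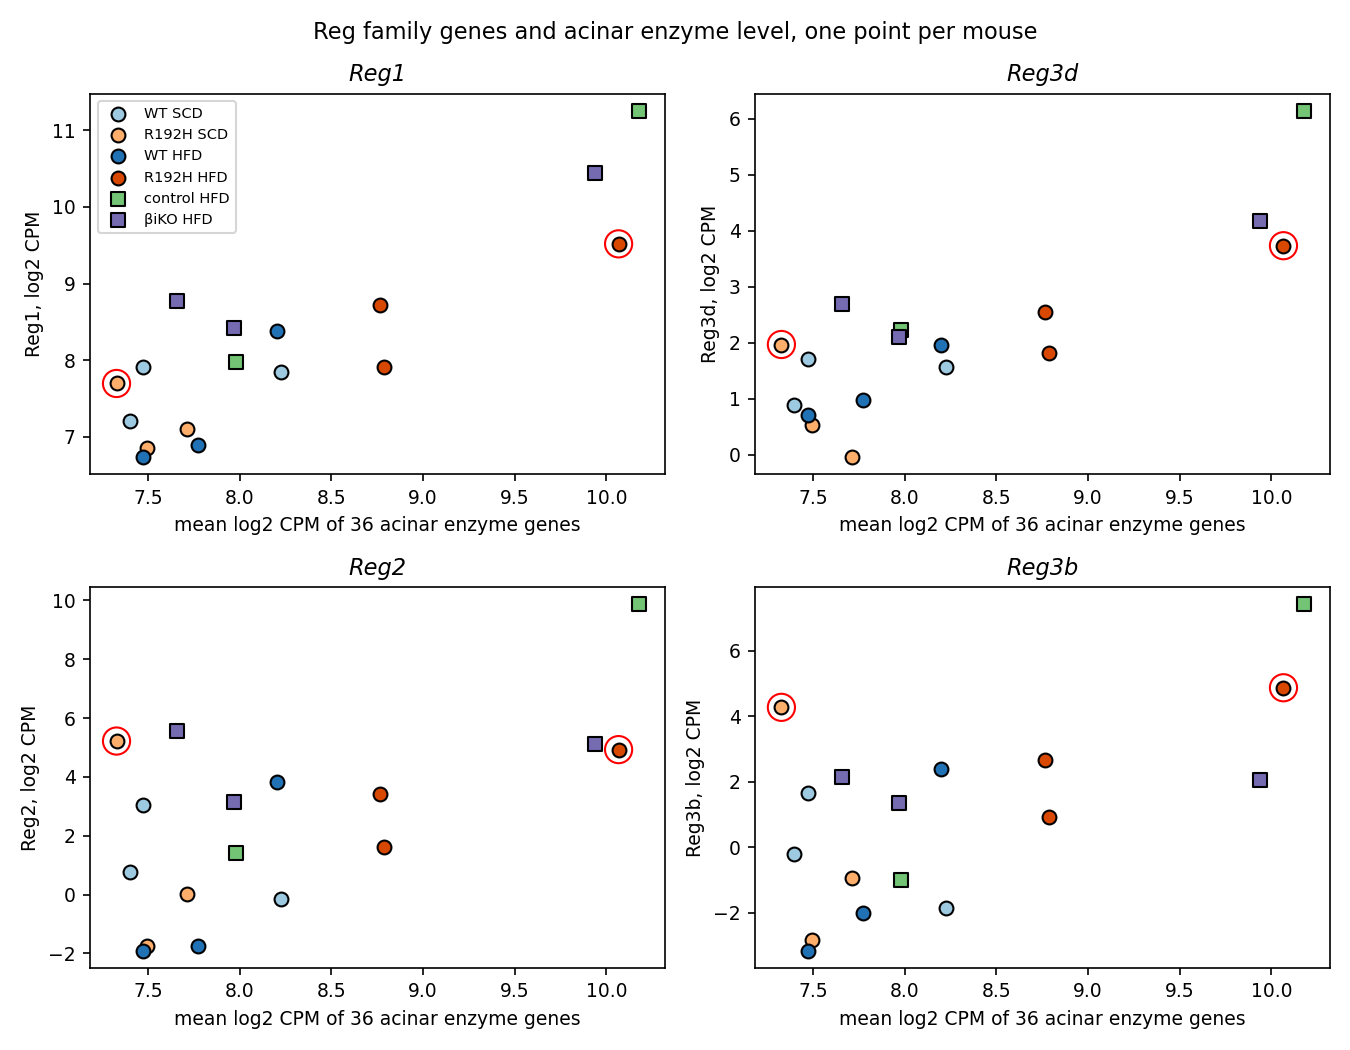
Log2 CPM of *Reg1*, *Reg3d*, *Reg2* and *Reg3b* against the mean log2 CPM of 36 acinar enzyme genes, 1 point per mouse (circles, first table; squares, second table). The tables were normalized apart, so the positions of circles and squares are not to be compared. Red rings mark the 2 mice with the most intestinal epithelium counts. The mouse of the first table and the 2 of the second with an acinar mean of 9.94 or more have the highest *Reg1* and *Reg3d* of their tables, whereas *Reg2* and *Reg3b* also reach high levels at a low acinar mean.

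Markers of the gut lining were high in 2 of the mice with high *Reg2* and *Reg3b*. The summed level of 26 intestinal epithelium genes outside the acinar list was 464 CPM in SCD-fed *Pax4* R192H mouse 1, with 4 genes at 0, and 242 CPM in HFD-fed *Pax4* R192H mouse 1, with 1 gene at 0. In the other 10 mice of the first table it was 43.2 to 79.6 CPM with 10 to 20 genes at 0, most of it from *Vil1* (39.1 to 72.5 CPM). *Alpi*, the alkaline phosphatase of the enterocyte brush border, was at 42.03 and 17.9 CPM in the 2 mice and at most 0.545 CPM in the others, and *Apoa4* at 126 and 62.1 CPM. These 3 genes were named after their values had been seen. The part of intestinal tissue in the *Reg2*, *Reg3* and *Reg4* levels of these mice was not tested. HFD-fed wildtype mouse 2, with *Reg2* at 14.0 CPM and *Reg3b* at 5.15 CPM, had 63.9 CPM for the list and 20 of the 26 genes at 0, *Alpi* among them. Without the 2 mice with the highest sums, an alternative chosen after seeing the data, *Reg3d* was called between the diets in *Pax4* R192H islets (1.99, adjusted p = 0.0344) and *Reg1* was not (1.40, adjusted p = 0.0977).

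The *Pax4* βiKO comparison asks what follows the loss of *Pax4* in adult islets, and here 1 control mouse decided the values. *Reg1* measured 2445 and 252 CPM in control mice 1 and 2, and 1390, 436 and 342 CPM in *Pax4* βiKO mice 1, 2 and 3. *Reg2* measured 936 and 2.58 CPM in controls and 34.9, 46.7 and 8.82 CPM in *Pax4* βiKO mice. *Reg3b* measured 170 and 0.430 CPM in controls and 4.05, 4.32 and 2.48 CPM in *Pax4* βiKO mice. The 2 controls therefore enclosed all 3 *Pax4* βiKO mice for each of these genes. The same held for *Reg3a* (26.1 and 0.166 CPM against 0.398 to 0.966 CPM), and *Reg3d* (70.4 and 4.60 CPM against 4.26 to 18.0 CPM) and *Reg3g* (6.16 and 0.298 CPM against 0.272 to 0.935 CPM) overlapped as well. Overlap was absent for 32.6% of the 20167 tested genes.

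The log2 fold changes of *Pax4* βiKO against control islets were -0.90 ± 0.86 for *Reg1* and -1.98 ± 0.94 for *Reg3d*, and between -4.56 and -2.20 for *Reg2*, *Reg3a*, *Reg3b* and *Reg3g*. None was called (adjusted p between 0.286 and 0.701), and 0.0893% of tested genes were. Without control mouse 1 the sign of all 6 changed, to 1.52 for *Reg1*, 3.54 for *Reg2* and 3.06 for *Reg3b*, again without a call. Without control mouse 2, *Reg3a* (-5.13) and *Reg3b* (-5.55) were called, with the spread of the lone control taken from the other group. Acinar enzymes differed in the same mice, with a list mean of 10.18 and 7.98 log2 CPM in control mice 1 and 2 and 9.94, 7.66 and 7.97 in *Pax4* βiKO mice. Relative to them, *Reg1* measured 14.2 and 6.24 CPM per 1000 CPM of acinar enzymes in controls and 10.2, 16.0 and 9.62 CPM in *Pax4* βiKO mice. *Reg2* reached 5.45 CPM per 1000 CPM in control mouse 1 and 1.71 CPM in *Pax4* βiKO mouse 2, against 0.0639 to 0.257 CPM in the other 3. The intestinal sum was 111 to 129 CPM in all 5 mice.

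Of 31 genes listed as regulators or receptor of the family, 24 were tested in the first table and 25 in the second. None was called in the *Pax4* R192H and wildtype comparisons on either diet, in the interaction, in wildtype islets between the diets or in *Pax4* βiKO islets. Between the diets in *Pax4* R192H islets 1 was higher and 3 were lower, 4 of 24 tested, where 15.7% of all tested genes were called, so this share was close to the background. *Cebpb* rose by 0.88 on the log2 scale, whereas *Cebpd* fell by 1.86, *Il6st* by 0.79 and *Lifr*, a co-receptor of gp130, by 0.59. *Stat3* had a log2 fold change of -0.44 ± 0.14 in that comparison (adjusted p = 0.048), under the fold threshold. *Extl3* had values between -0.28 and 0.22, *Il6ra* between -0.20 and 0.20 and *Socs3*, a target and inhibitor of Stat3, between -0.68 and 0.48 in the 6 comparisons, none of them called. *Extl3* measured 16.6 to 30.6 CPM in the first table, so its transcript was present in every mouse.

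The other lists were counted in the same comparison, between the diets in *Pax4* R192H islets, against the same background of 15.7% of tested genes called. Of 20 acute-phase and injury genes, 9 were tested and *Clu* (1.09) and *Nupr1* (1.13), a stress gene of the pancreas, were higher. *Clu* was also higher by 0.88 in *Pax4* R192H than in wildtype islets on an HFD. Of 18 duct genes, 16 were tested, 3 were higher (*Krt7*, *Krt8* and *Krt18*) and 1 lower (*Tspan8*). Of 22 endocrine genes 5 were higher, among them *Ins2* (1.17), *Chgb* (1.08) and *Ins1* (1.01), and 1 was lower, the glucose transporter *Slc2a2* (-1.34). Of 22 immune genes, 16 were tested and *Ms4a1* was higher. Of 27 intestinal genes, 13 were tested and *Zg16*, which the acinar list also holds, was higher. None of the 7 tested genes among 13 other C-type lectin-like secreted genes was called in any comparison, and their median log2 fold change there was -0.51.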

How the data were processed

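Bulk RNA-seq of islets from 17 mice was used. The deposited tables hold expected counts, one value for each gene and mouse. To obtain them, the authors mapped paired-end reads with STAR (v2.7.1, mm10), ran RSEM (v1.3.3) and summarized transcripts with tximport. Libraries were stranded, and the annotation release is not given in the sources used here. Expected counts were rounded and the tables analysed apart. Groups and replicate numbers came from the sample titles.

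Tests were run in edgeR (v4.0.16, under R v4.3.3) by quasi-likelihood, with TMM normalization, filterByExpr at a minimum count of 10 and a coefficient per group, with Benjamini-Hochberg adjustment over all tested genes. Genes were called at an adjusted p-value below 0.05 with a log2 fold change beyond 0.5 in size. SEs are the log2 fold change divided by the root of F. Log2 CPM used a prior count of 2. Correlation p-values came from 100000 permutations, two-sided.

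Named were all members, the 3 genes most correlated with each, at most 4 genes of each list (those called with the largest change, otherwise the most abundant), and *Extl3*, *Stat3*, *Il6ra* and *Socs3*. The 5 β cell genes of the islet check were named in addition. *Vil1*, *Alpi* and *Apoa4* were added after their values were seen. Members, lists and rules were chosen with earlier results of these data known. GENCODE M21 matched 65.8% and 66.7% of the identifiers, all members included. All 7 promoters were found in RefSeq.

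Alternatives were RLE size factors, leaving the 2 largest genes out of library totals, no filter on low counts, a minimum of 10 counts in all samples, models of the compared groups only, a replicate block, acinar and intestinal covariates, DESeq2 v1.42.0 and leaving out each mouse. P-values measure the spread between mice, and floors of 3 counts cover counting error only.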

Additional observations from a re-analysis of the deposited data

How the results depend on the processing

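Within-group SDs of log2 CPM exceeded 2 for 4 members in the first table, where differences of over 2 log2 units between the genotypes were not called. Members called numbered 0 on SCD and HFD between the genotypes, 0 for the interaction, 0 between the diets in wildtype islets, 2 between the diets in *Pax4* R192H islets and 0 for *Pax4* βiKO. Without a filter on low counts they numbered 4, 6, 2, 0, 3 and 6, while calls over all genes went from 0, 437, 25, 71, 2996 and 18 to 261, 1279, 708, 924, 3819 and 697, of 39845 genes in the first table and 38704 in the second. In that *Pax4* βiKO model edgeR gave *Reg3b* an adjusted p of 2.33e-272 although its 2 control mice stood at 170.1 and 0.43 CPM, so no statement here rests on the calls made without a filter. The cause was not tested. DESeq2 called 1 member between the genotypes on an HFD. The acinar covariate left 0 members between the diets in *Pax4* R192H islets, and leaving out the 2 mice with the most intestinal counts left 1. RLE size factors, library totals without the 2 largest genes, at least 10 counts in every sample and models of the compared groups only kept each of these numbers, although the minimum of 10 counts left only 2 members to test in the first table and 4 in the second. Models of the compared groups were not run for the interaction, which needs all 4, or for *Pax4* βiKO, whose table holds only these 2 groups. With Spearman's in place of Pearson's coefficient, 0 or 1 of the 3 nearest genes of each member stayed the same.

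A pairing of mice by replicate number was not seen. Deviations of same-numbered mice correlated at -0.30 to 0.19 in the first table, and those of differently numbered mice at -0.31 to 0.40. With groups of 3 these values cannot exclude a pairing or a shared batch. With the replicate block the members called were the same in number, while calls over all genes went from 437 to 147 between the genotypes on an HFD, from 25 to 0 for the interaction, from 71 to 22 and from 2996 to 2347 between the diets in wildtype and *Pax4* R192H islets, and from 18 to 88 for *Pax4* βiKO.

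Leaving out each mouse gave 0 to 2 called members between the diets in *Pax4* R192H islets, 0 to 1 between the genotypes on an HFD and 0 to 2 for *Pax4* βiKO, and 0 elsewhere. The log2 fold change between the diets in *Pax4* R192H islets then ranged from -0.93 to 4.74 for *Reg2*, from -1.66 to 5.55 for *Reg3a*, from -0.72 to 5.67 for *Reg3b* and from -1.17 to 9.32 for *Reg3g*. The log2 fold change between the diets in wildtype islets then ranged from -0.87 to 0.14 for *Reg1*, from -3.94 to 1.93 for *Reg2*, from -1.01 to 3.01 for *Reg3a*, from -3.43 to 1.78 for *Reg3b*, from -0.58 to 0.13 for *Reg3d* and from -1.37 to 3.37 for *Reg3g*. The log2 fold change for the interaction then ranged from -1.72 to 4.28 for *Reg2*, from -2.70 to 4.49 for *Reg3a*, from -1.12 to 5.26 for *Reg3b* and from -2.63 to 8.69 for *Reg3g*. The log2 fold change for *Pax4* βiKO then ranged from -1.79 to 1.52 for *Reg1*, from -4.95 to 3.54 for *Reg2*, from -5.13 to 2.14 for *Reg3a*, from -5.55 to 3.06 for *Reg3b*, from -2.89 to 1.05 for *Reg3d* and from -3.14 to 1.21 for *Reg3g*. The log2 fold change between the genotypes on an SCD then ranged from -2.62 to 3.39 for *Reg2*, from -1.62 to 4.76 for *Reg3a*, from -2.40 to 3.73 for *Reg3b*, from -1.16 to 0.00338 for *Reg3d* and from -6.21 to 5.12 for *Reg3g*.

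Other reversals concerned values that were not called, except that of *Reg1* between the diets in *Pax4* R192H islets. With the replicate block the value was 0.0466 for *Reg2*, -1.24 for *Reg3a*, -0.56 for *Reg3g* for the interaction. With the acinar covariate the value was -0.0864 for *Reg1*, -2.77 for *Reg2*, -4.29 for *Reg3a*, -2.87 for *Reg3b*, -3.10 for *Reg3g* between the diets in *Pax4* R192H islets, -0.39 for *Reg2*, -0.55 for *Reg3b*, -0.17 for *Reg3g* between the diets in wildtype islets, -4.58 for *Reg3a*, -2.32 for *Reg3b*, -2.93 for *Reg3g* for the interaction, 0.21 for *Reg1* for *Pax4* βiKO and -0.24 for *Reg2*, -1.15 for *Reg3a*, -0.24 for *Reg3g* between the genotypes on an HFD. With the intestinal covariate the value was 0.00896 for *Reg3d* between the diets in wildtype islets, 0.63 for *Reg2* for the interaction, -0.75 for *Reg2*, -0.64 for *Reg3a*, -1.21 for *Reg3g* between the genotypes on an HFD and -1.38 for *Reg2*, -0.68 for *Reg3a*, -1.10 for *Reg3b*, -2.18 for *Reg3g* between the genotypes on an SCD. Without the 2 mice with the most intestinal counts the value was 3.13 for *Reg2* for the interaction and -2.62 for *Reg2*, -1.62 for *Reg3a*, -2.39 for *Reg3b*, -6.26 for *Reg3g* between the genotypes on an SCD.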
